A study of Mus musculus with 18 samples.

Results

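The effect of 0.3 µM MG132, a peptide aldehyde that inhibits the proteasome, was compared between 2 lines of mouse fibroblasts that differ in T-N1G, a construct in which the transcription factor Nrf1 is tethered to its partner MafG. The comparison was chosen by its 4 groups and uses 12 of the 18 libraries of the series: 3 libraries of T-N1G cells at 0.3 µM, 3 of T-N1G cells under vehicle, 3 of Mock cells at 0.3 µM and 3 of Mock cells under vehicle. All 4 groups were immortalised embryonic fibroblasts of the genotype MafF-/-::MafG-/-::MafK-/-, kept in serum-containing medium and exposed for 12 h. The T-N1G cells carried the construct in addition (spelled T-NG1 in the genotype labels). The labels give neither the promoter that drives it nor whether a line is 1 clone. They do not say either that replicates are separate cultures, so p-values measure the scatter of these libraries alone, and that scatter may be technical. Anything else in which the lines differ cannot be told apart from T-N1G. The other 6 libraries, at 1.0 µM, supply only the values set beside these results near the end.

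Polyadenylated RNA was sequenced to between 19978399 and 21293709 fragments per library. Levels are given as CPM, counts scaled by library size after TMM normalisation. The response of a line is its log2 fold change at 0.3 µM over vehicle. The interaction is the response of T-N1G cells minus that of Mock cells, on the log2 scale, so a positive value means that the response was higher in T-N1G cells, whichever way either line moved. Each value rests on 3 libraries per group, the ± after a log2 value is its standard error (SE), and genes were called at an adjusted p under 0.05 in edgeR's quasi-likelihood test with Benjamini-Hochberg adjustment over all 12683 genes tested. The median SD of log2 CPM between libraries of a group was 0.075 at 0.3 µM and 0.0591 under vehicle in T-N1G cells, against 0.0486 at 0.3 µM and 0.0471 under vehicle in Mock cells. The 12 fibroblast markers together stood at 8595 to 9357 CPM in T-N1G cells at 0.3 µM, the lowest of the groups, and between 11250 and 12550 CPM in the others. The leukocyte markers reached at most 5.48 CPM in a library, with Itgax at 0.

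Nrf1, encoded by Nfe2l1, is a CNC-type leucine zipper factor made at the endoplasmic reticulum. In cells with a working proteasome it is extracted by p97, ubiquitinated and degraded. When the proteasome is inhibited, Nrf1 is deglycosylated by NGLY1, cleaved by DDI2 and enters the nucleus, where with a small Maf protein (MafF, MafG or MafK) it binds antioxidant response elements in front of proteasome subunit genes. This feedback is known as the proteasome bounce-back. The same elements are shared with the related factor Nrf2, whose targets make glutathione, NADPH and enzymes that handle quinones, haem and iron. Cells without small Maf proteins lack the partner that these factors need to bind DNA.

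The genes of the construct itself checked the labels. Nfe2l1 (chr11:96678727-96691282 of the mouse build mm9, as the deposited table gives it) had 5141, 5054 and 4099 CPM in T-N1G cells at 0.3 µM and 1187, 1117 and 1033 CPM in T-N1G cells under vehicle, against 375, 386 and 407 CPM in Mock cells at 0.3 µM and 289.6, 281 and 276 CPM in Mock cells under vehicle. All 3 inhibitor libraries stood above all 3 vehicle libraries in each line, and the level at 0.3 µM over that under vehicle was 4.28-fold in T-N1G and 1.38-fold in Mock cells, with an interaction of 1.64 ± 0.10 (SE, adjusted p = 8.7e-10). In T-N1G cells the count of Nfe2l1 cannot be split here into construct and own gene. Mafg, which is deleted in both lines, had 913, 887 and 708 CPM in T-N1G cells at 0.3 µM and 175, 162 and 143 CPM in T-N1G cells under vehicle, against 0.569, 0.506 and 0.656 CPM in Mock cells at 0.3 µM and 0.279, 0.418 and 0.369 CPM in Mock cells under vehicle. Its response in T-N1G cells was 2.38 ± 0.093, so the transcript of the construct was itself more abundant under the inhibitor, and its part in the results below was not tested. The interaction of Mafg, 1.69 with adjusted p = 0.045, rests on Mock libraries at under 1 CPM. The call was lost when any 1 of 6 libraries was left out, at adjusted p up to 0.12: T-N1G 0.3 µM replicate 2, T-N1G vehicle replicate 2, Mock 0.3 µM replicates 1 and 2, and Mock vehicle replicates 2 and 3. It was also lost without the expression filter (adjusted p = 0.077). Of the related genes, Keap1, the adaptor through which Nrf2 is degraded, had 134, 127 and 123 CPM in T-N1G cells at 0.3 µM and 86.2, 84.2 and 82.4 CPM in T-N1G cells under vehicle, against 35.3, 38.5 and 35.2 CPM in Mock cells at 0.3 µM and 60.97, 61.6 and 65.4 CPM in Mock cells under vehicle, that is, it rose in T-N1G and fell in Mock cells, with an interaction of 1.39 ± 0.072 (SE, adjusted p = 1.4e-11). Nfe2l2, which encodes Nrf2, rose in both lines with an interaction of 0.36 ± 0.093 (SE, adjusted p = 0.0034), and Maff rose in both with 0.74 ± 0.21 (SE, adjusted p = 0.0062). With all 18 libraries in the fit the calls of these 2 genes were lost, at adjusted p = 0.18 for Nfe2l2 and 0.08 for Maff. Maff and Mafk are deleted in both lines by genotype but still gave counts, and which part of each gene these cover is not known here. Mafk had an interaction of -0.33 ± 0.31 and was not called (adjusted p = 0.40).

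The response to 0.3 µM MG132 differed between T-N1G and Mock cells for 5873 of the 12683 genes tested. It was higher in T-N1G cells for 2991 genes (23.6% of those tested) and lower for 2882 (22.7%), with a median interaction of -0.01 over all genes. At 2-fold or more the counts were 426 higher (3.36%) and 506 lower (3.99%). In T-N1G cells 4607 genes rose (36.3%) and 4586 fell (36.2%) under the inhibitor. In Mock cells 4415 rose (34.8%) and 4264 fell (33.6%). A gene list below is read against these shares. When all 18 libraries shared 1 estimate of spread, 1878 genes were called higher and 1454 lower (14.2% and 11% of the 13258 then tested). With libraries of the same number taken as pairs inside each line, an alternative added after seeing the data, 3470 were called higher and 3555 lower (27.4% and 28%). List counts below are given under these 2 fits where they move by more than 1.5 times.

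Higher and lower interactions took several forms. Among the 2991 genes called higher, 921 rose in both lines and rose further in T-N1G cells, 714 rose in T-N1G cells and were not called in Mock cells, and 420 rose in T-N1G cells while they fell in Mock cells. A further 454 fell in both lines and fell less in T-N1G cells, and 451 were not called in T-N1G cells and fell in Mock cells. Among the 2882 genes called lower, 790 fell in both lines and fell further in T-N1G cells, 727 fell in T-N1G cells and were not called in Mock cells, and 368 fell in T-N1G cells while they rose in Mock cells. In 511 the rise was called in Mock cells with no call in T-N1G cells, and 460 rose in both lines but less in T-N1G cells. The remaining 31 and 26 genes were called in the interaction with no call in either line. The largest responses of opposite sign, as medians over a form, were in the group of 420, at 0.37 in T-N1G and -0.32 in Mock cells, and in the group of 368, at -0.38 in T-N1G and 0.34 in Mock cells.

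**Figure D1:**
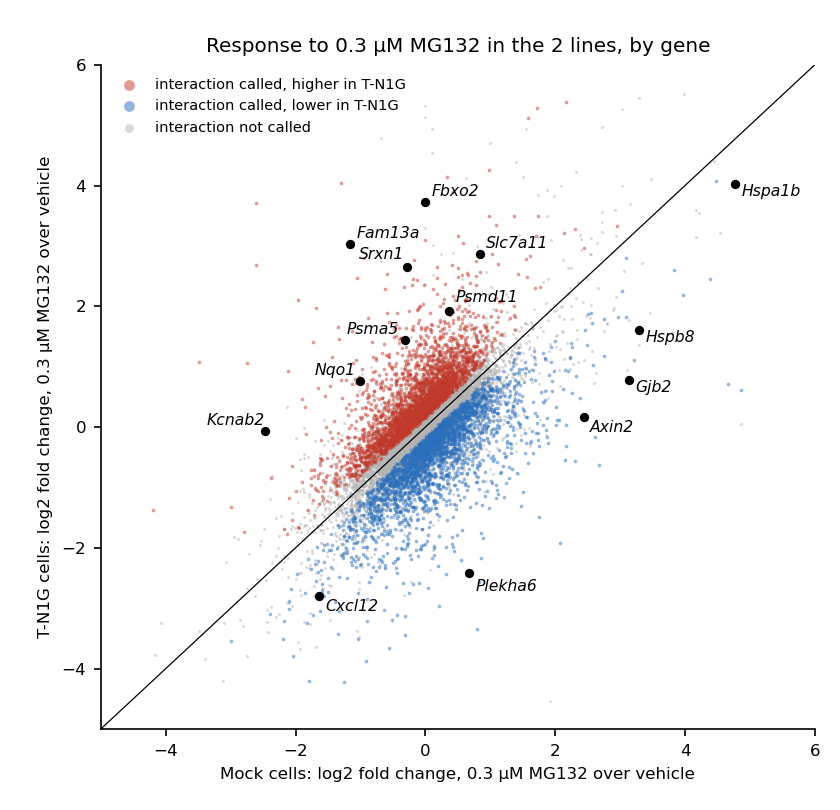
Log2 fold change at 0.3 µM MG132 over vehicle in T-N1G cells (vertical) against Mock cells (horizontal), 1 point per gene over 3 libraries a group, coloured by the interaction call; the line marks equal responses, 20 genes lie outside the axes and black points are named genes. Srxn1, Fam13a, Fbxo2 and Psma5 lie above the line, and Gjb2, Axin2, Plekha6 and Cxcl12 below it.

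Nearly all genes of the proteasome responded more strongly upward in T-N1G cells. Of the 33 subunits of its 20S core and 19S regulatory particle, 32 were called higher in the interaction and 0 lower, against 23.6% and 22.7% of all genes, with a median interaction of 1.15, and 19 passed 2-fold. In T-N1G cells 32 subunits rose and 1 fell (median response 1.32). In Mock cells 19 rose and 7 fell (median 0.17). In 6 subunits the directions were opposite, up in T-N1G and down in Mock cells: Psma2, Psma4, Psma5, Psmb5, Psmd13 and Psmd7. Another 7, namely Psma1, Psma3, Psma7, Psmb1, Psmb4, Psmb6 and Psmc1, rose in T-N1G cells and were not called in Mock cells.

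The alpha ring, the outer gate of the 20S core, gave 7 calls of 7. Psma5 (chr3:108059843-108082870) had 262, 289 and 256 CPM in T-N1G cells at 0.3 µM and 92.04, 107 and 97.3 CPM in T-N1G cells under vehicle, against 52.6, 56.9 and 54.2 CPM in Mock cells at 0.3 µM and 65.6, 71.5 and 66.9 CPM in Mock cells under vehicle. Its T-N1G libraries rose under the inhibitor and its Mock libraries fell, without overlap in either line, and the interaction was 1.76 ± 0.085 (SE, adjusted p = 5.6e-12), 3.39-fold. Psma1 and Psma7 followed with 1.45 ± 0.069 and 1.45 ± 0.065, and Psma6 had the smallest value of the ring, 0.75 ± 0.074. In the beta ring, which holds the proteolytic sites, all 7 were called as well. Psmb4 had 361, 391 and 339 CPM at 0.3 µM and 121, 124 and 119 CPM under vehicle in T-N1G cells, against 105, 111 and 108 CPM at 0.3 µM and 97.6, 107 and 101 CPM under vehicle in Mock cells, an interaction of 1.50 ± 0.073 (SE, adjusted p = 5.9e-12). Psmb5, the subunit of chymotrypsin-like activity, had 135, 140.4 and 128 CPM at 0.3 µM and 91.5, 102 and 89.2 CPM under vehicle in T-N1G cells, against 75.2, 74.3 and 77.3 CPM at 0.3 µM and 87.2, 93.3 and 88.6 CPM under vehicle in Mock cells, and its interaction was the smallest of the ring, 0.76 ± 0.076 (SE, adjusted p = 1.3e-07).

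In the 19S particle, the 6 ATPases that unfold substrates were all called, between 0.71 ± 0.068 for Psmc2 and 1.35 ± 0.072 for Psmc4. Psmc4 had 356, 384 and 344 CPM in T-N1G cells at 0.3 µM and 92.3, 98.3 and 88.96 CPM in T-N1G cells under vehicle, against 146, 139 and 145 CPM in Mock cells at 0.3 µM and 93.8, 97.6 and 90.4 CPM in Mock cells under vehicle, so that it rose in both lines and more in T-N1G cells. The scaffolds and ubiquitin receptors of the base (Psmd1, Psmd2, Psmd4 and Adrm1) were all called, with Psmd4 highest at 1.25 ± 0.071 and Adrm1 lowest at 0.79 ± 0.075. Adrm1 had the largest Mock response of the subunits, 0.91 ± 0.053. Of the 9 lid subunits 8 were called. Psmd11, a lid scaffold subunit, had 573, 620.3 and 585 CPM in T-N1G cells at 0.3 µM and 152, 159 and 156 CPM in T-N1G cells under vehicle, against 161, 155 and 161 CPM in Mock cells at 0.3 µM and 124, 126 and 119.9 CPM in Mock cells under vehicle, with an interaction of 1.56 ± 0.062 (SE, adjusted p = 6.5e-13), 2.95-fold. Psmd14, the deubiquitinase of the lid, had 0.84 ± 0.069.

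Psmd8 was the subunit not called. Its levels were 253, 258 and 257 CPM at 0.3 µM and 196, 194 and 187 CPM under vehicle in T-N1G cells, against 281, 279 and 277 CPM at 0.3 µM and 229, 231 and 215 CPM under vehicle in Mock cells, so that it rose in both lines, by 0.41 in T-N1G and 0.31 in Mock cells, with an interaction of 0.10 ± 0.058 (adjusted p = 0.15). Shfm1, the smallest lid component, fell in both lines, by 0.29 in T-N1G and 0.65 in Mock cells on the log2 scale, and its interaction of 0.36 ± 0.073 (SE, adjusted p = 0.00046) was lost with all 18 libraries in the fit (adjusted p = 0.34).

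**Figure D2:**
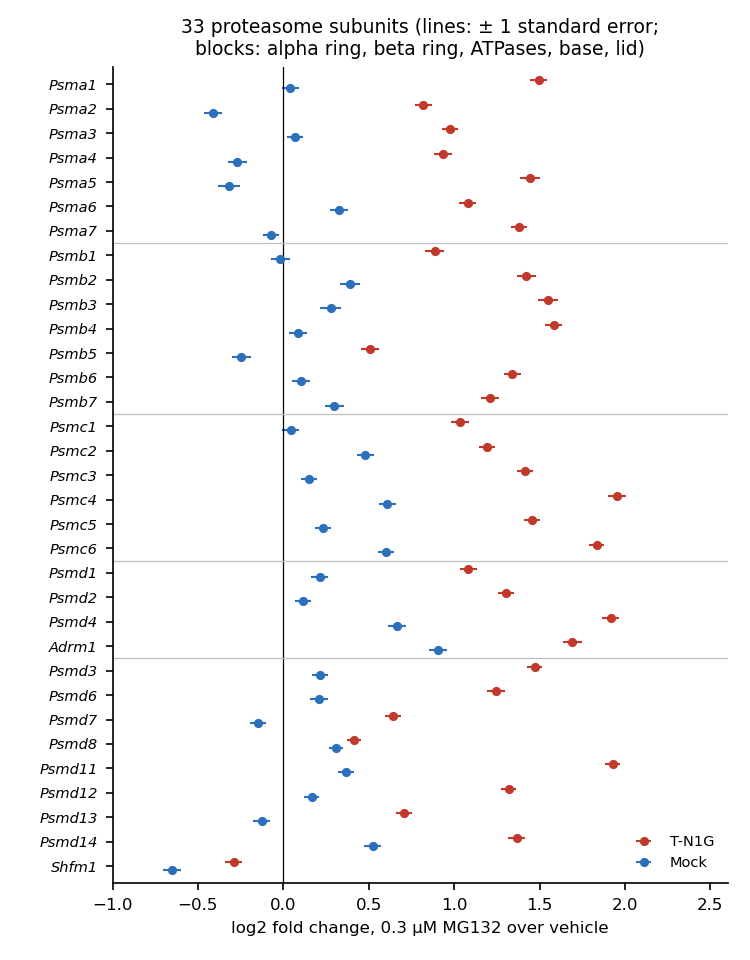
Log2 fold change at 0.3 µM MG132 over vehicle for 33 proteasome subunits in T-N1G (red) and Mock cells (blue), 3 libraries a group, with bars of 1 standard error. The red point lies right of the blue one in every row, by the least in Psmd8, and Shfm1 has both points left of 0.

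Helpers of the proteasome followed in part. Of the assembly chaperones, 6 of 8 were called higher and 0 lower (median 0.46). By line, 4 of them rose and 2 fell in T-N1G cells (median response 0.159), against 1 and 6 in Mock cells (median -0.288). Psmd5, which chaperones the ATPase base, rose in T-N1G and fell in Mock cells (1.12 in T-N1G and -0.28 in Mock cells), an interaction of 1.39 ± 0.068 (SE, adjusted p = 5.9e-12), and Pomp, which matures the core, had 1.02 ± 0.078 (SE, adjusted p = 3.2e-09). Of the alternative activators and associated factors, 11 of 16 were called higher and 1 lower (median 0.39). Psme4, the PA200 activator, had 459, 490.2 and 486 CPM in T-N1G cells at 0.3 µM and 169, 181 and 193 CPM in T-N1G cells under vehicle, against 195, 211 and 207 CPM in Mock cells at 0.3 µM and 202, 206 and 207 CPM in Mock cells under vehicle, and its interaction was 1.41 ± 0.070 (SE, adjusted p = 7.2e-12). The proteasome-bound deubiquitinase Usp14 had 1.28 ± 0.067 (SE, adjusted p = 1.5e-11), and Zfand5, which associates with the 26S particle, 1.14 ± 0.065 (SE, adjusted p = 5.3e-11). On the immunoproteasome list, which also holds antigen presentation genes, 1 of 6 was called (Tapbp, 0.57 ± 0.16). Tapbp encodes no proteasome subunit, and its call was lost with all 18 libraries (adjusted p = 0.3).

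The p97 segregase, which extracts Nrf1 and other proteins for degradation, and its partners were also among the genes called higher. Vcp, which encodes p97, had 2262, 2400.5 and 2249 CPM in T-N1G cells at 0.3 µM and 1104, 1138 and 1104 CPM in T-N1G cells under vehicle, against 1093, 1124 and 1062 CPM in Mock cells at 0.3 µM and 1007, 1000.3 and 966 CPM in Mock cells under vehicle. Vcp rose in both lines without overlap between treatments, and rose more in T-N1G cells. Its interaction was 0.91 ± 0.066 (SE, adjusted p = 1.5e-09). Its cofactors Ufd1l (1.05 ± 0.071), Nploc4 (0.93 ± 0.062), Ubxn4 (0.97 ± 0.061) and Nsfl1c (0.92 ± 0.059) had similar values. Among the genes of Nrf1 processing and turnover, 8 of 14 were called higher and 2 lower (median 0.26). Ngly1, the N-glycanase that processes Nrf1, fell in both lines and fell less in T-N1G cells, with 10.6, 8.85 and 10.1 CPM at 0.3 µM and 15.3, 14.4 and 16.4 CPM under vehicle in T-N1G cells, against 4.19, 3.95 and 4.99 CPM at 0.3 µM and 11.3, 12.3 and 12.3 CPM under vehicle in Mock cells (interaction 0.81 ± 0.15 (SE, adjusted p = 0.00017)). Among ubiquitin genes and p97 cofactors, 12 of 18 were called higher and 1 lower (median 0.26). The polyubiquitin gene Ubb rose in both lines, 2.49 in T-N1G and 1.56 in Mock cells, with an interaction of 0.93 ± 0.23 (SE, adjusted p = 0.0099).

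Antioxidant genes were also called higher more often than all genes. Over the 79 genes tested on 6 lists of glutathione and thioredoxin, glutathione transferase, quinone and xenobiotic, NADPH, haem and iron genes, 48 were called higher and 8 lower, with a median interaction of 0.49. In T-N1G cells 45 rose and 20 fell, and in Mock cells 20 rose and 37 fell. The count of 8 lower was 3 with all 18 libraries, and 4 or 5 without T-N1G 0.3 µM replicate 2, T-N1G vehicle replicate 1 or 2, Mock 0.3 µM replicate 2 or 3, or Mock vehicle replicate 2. Srxn1 (chr2:151931259-151937112), the sulfiredoxin that repairs peroxiredoxins, had 312, 289.6 and 259 CPM in T-N1G cells at 0.3 µM and 48.5, 46.5 and 41.3 CPM in T-N1G cells under vehicle, against 26.99, 25.6 and 30.1 CPM in Mock cells at 0.3 µM and 32.8, 31.9 and 35.3 CPM in Mock cells under vehicle. T-N1G libraries rose 6.31-fold and Mock libraries lay lower under the inhibitor than under vehicle without overlap, and the interaction was 2.93 ± 0.11 (SE, adjusted p = 7.7e-12). Slc7a11, the cystine importer that feeds glutathione synthesis, rose in both lines, 2.86 in T-N1G and 0.84 in Mock cells, with an interaction of 2.02 ± 0.24 (SE, adjusted p = 4.8e-05).

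Of the glutathione and thioredoxin genes, 12 of 15 were called higher and 1 lower (median 0.78). Gsr, glutathione reductase, had 1.50 ± 0.078, and Gclm, the modifier subunit of glutamate-cysteine ligase, 1.33 ± 0.085. Prdx1, a peroxiredoxin, had 430.4, 479 and 431 CPM in T-N1G cells at 0.3 µM and 321, 339.7 and 327 CPM in T-N1G cells under vehicle, against 126, 124 and 122 CPM in Mock cells at 0.3 µM and 203, 223 and 214 CPM in Mock cells under vehicle, a rise in T-N1G and a fall in Mock cells and an interaction of 1.23 ± 0.071 (SE, adjusted p = 5.3e-11). The glutathione transferases gave 7 higher and 0 lower of 13. By line, 5 rose and 4 fell in T-N1G cells (median response 0.075), against 1 and 8 in Mock cells (median -0.595). Gsta4 had 26.6, 30.4 and 35.9 CPM at 0.3 µM and 9.55, 11.02 and 8.89 CPM under vehicle in T-N1G cells, against 1.14, 0.911 and 0.706 CPM at 0.3 µM and 2.000, 2.46 and 2.58 CPM under vehicle in Mock cells, with 3.01 ± 0.26 (SE, adjusted p = 2.3e-08). Gstm1 had 1.22 ± 0.14. Transferases of 1 class are close in sequence, and how the counting treated fragments shared between them is not stated.

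Nqo1, the NADPH quinone reductase often used as a marker of the pathway, had 22.7, 25.7 and 21.4 CPM in T-N1G cells at 0.3 µM and 13.2, 13.6 and 14.6 CPM in T-N1G cells under vehicle, against 2.17, 2.38 and 2.07 CPM in Mock cells at 0.3 µM and 5.02, 3.81 and 4.52 CPM in Mock cells under vehicle. It rose in T-N1G and fell in Mock cells, 0.76 in T-N1G and -1.01 in Mock cells, with an interaction of 1.77 ± 0.17 (SE, adjusted p = 1.0e-07). Quinone, carbonyl and xenobiotic genes gave 8 higher and 0 lower of 14. Of the NADPH and pentose phosphate enzymes, 7 of 11 were called higher and 1 lower (median 0.29), with Pgd at 1.56 ± 0.076 (SE, adjusted p = 6.1e-12) and Taldo1 at 1.48 ± 0.069 (SE, adjusted p = 4.5e-12), each of which rose in T-N1G cells.

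Genes that handle haem were called higher more often than all genes (23.6%), and lower about as often (22.7%). Of the 14 tested, 8 were called higher (57.1%) and 3 lower (21.4%). Blvrb, a biliverdin reductase, had 110.1, 106 and 101 CPM in T-N1G cells at 0.3 µM and 19.8, 19.3 and 18.5 CPM in T-N1G cells under vehicle, against 10.2, 9.01 and 8.77 CPM in Mock cells at 0.3 µM and 9.86, 10.6 and 11.4 CPM in Mock cells under vehicle, which gave an interaction of 2.65 ± 0.11 (SE, adjusted p = 6.5e-13), 6.27-fold. The porphyrin transporter Abcb6 had 1.82 ± 0.11 and the haem transporter Slc48a1 1.53 ± 0.099. Hmox1, haem oxygenase 1, went the other way, with 1826, 1824 and 1616 CPM in T-N1G cells at 0.3 µM and 946, 923 and 909.6 CPM in T-N1G cells under vehicle, against 3596, 3316 and 3459 CPM in Mock cells at 0.3 µM and 1142, 1189 and 1088 CPM in Mock cells under vehicle. Its libraries rose in both lines without overlap and rose more in Mock cells, an interaction of -0.68 ± 0.079 (SE, adjusted p = 9.1e-07). Of the iron genes, 6 of 12 were called higher (50%) and 3 lower (25%, near the share of all genes). The ferritin chains Fth1 (0.75 ± 0.068) and Ftl1 (0.68 ± 0.068), which store iron, rose in T-N1G cells, and the transferrin receptor Tfrc fell in both lines and less in T-N1G cells (0.64 ± 0.17). The lower count was 1 on each list with all 18 libraries, and 1 on the haem list without T-N1G vehicle replicate 2.

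The antioxidant response element, to which CNC and small Maf heterodimers bind, was looked for as TGACNNNGC on both strands from 250 bases before to 50 after each start site, in the RefSeq promoters of build GRCm38.p6. Of the 2991 genes called higher, 2456 matched the promoter table, and 505 of their 3026 promoters (16.7%) held the letters. Of the 426 called higher by 2-fold, 352 matched, with 97 of 457 promoters (21.2%). Over the 12920 promoters of all genes tested the share was 14.3%, and over those of genes not called 14.1%. For the antioxidant, haem and iron lists it was 14.4%. Over all 32851 promoters of the table, which include genes not expressed here, it was 12.4%. The fuller word TGACTCAGC, a special case of the first, occurred in 0.694% of promoters of genes called higher, in 1.97% of those called higher by 2-fold and in 0.48% of those of all genes tested. Of the genes called lower 77.6% matched, under the limit of 80% set for such a check, against 82.1% of those called higher and 79.8% of all tested. Their promoters held TGACNNNGC in 12.5% and TGACTCAGC in 0.332%. For those lower by 2-fold, of which 69.2% matched, the shares were 9.58% and 0.223%. The sets of all genes tested and of genes not called (79.7% matched) were under the limit as well. The check is therefore void for genes called lower and for both of these reference sets. No comparison is drawn from any of these shares. Of 27 proteasome subunit genes that matched, 6 held TGACNNNGC and 0 held TGACTCAGC. A match is a description and not a site of binding.

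The following stretches, printed 5′ to 3′ on the strand of the gene with the match in capitals, show the words in front of 6 genes called higher and 2 called lower, Edn1 and Sprr1a. The words also occur before other genes called lower, among them Hsph1, Tle3, Erf, Egr2 and Nr4a2. GCTGAGTCA is the reverse complement of TGACTCAGC. In build GRCm38.p6 they lie at chr4:116685450-116685490 (Prdx1, plus strand), chr14:45329581-45329621 (Psmc6, plus), chr2:130397811-130397851 (Cpxm1, minus), chr16:90220690-90220730 (Sod1, plus), chr16:44139280-44139320 (Atp6v1a, minus), chr14:54618018-54618058 (Psmb5, minus), chr13:42301266-42301306 (Edn1, plus) and chr3:92486005-92486045 (Sprr1a, minus), all upstream of the start.
Prdx1: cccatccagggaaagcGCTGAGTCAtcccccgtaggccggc
Psmc6: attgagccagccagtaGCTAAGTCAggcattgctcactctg
Cpxm1: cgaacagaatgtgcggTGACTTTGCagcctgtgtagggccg
Sod1: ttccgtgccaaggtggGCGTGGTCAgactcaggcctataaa
Atp6v1a: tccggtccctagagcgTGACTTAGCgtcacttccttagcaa
Psmb5: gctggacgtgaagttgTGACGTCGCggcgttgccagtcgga
Edn1: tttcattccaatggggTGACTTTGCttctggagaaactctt
Sprr1a: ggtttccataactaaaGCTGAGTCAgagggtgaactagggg
The match in the first, the peroxiredoxin gene, lies 124 bases before the start and that in Psmc6, an ATPase subunit whose interaction was 1.23 ± 0.063, 218 bases before it. In Cpxm1 the distance is 197 bases, in Sod1 47, in the proton pump subunit gene Atp6v1a 36, in Psmb5 38, in Edn1 185 and in Sprr1a 139. Sprr1a, a cornified envelope precursor of the epidermis, had an interaction of -2.32 ± 0.71 (SE, adjusted p = 0.022).

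The largest positive interactions, among called genes with at least 5 CPM in a group, were mostly outside the proteasome. Fam13a (chr6:58883529-58974496) had 43.2, 35.3 and 37.04 CPM in T-N1G cells at 0.3 µM and 5.41, 4.15 and 4.61 CPM in T-N1G cells under vehicle, against 1.55, 1.57 and 1.31 CPM in Mock cells at 0.3 µM and 3.39, 3.02 and 3.46 CPM in Mock cells under vehicle. It rose 8.15-fold in T-N1G cells and fell in Mock cells, with the largest positive interaction of this set, 4.18 ± 0.20 (SE, adjusted p = 5.9e-12). Fbxo2, an F-box protein that recognises glycoproteins for ubiquitination, had 31.5, 30.3 and 34.4 CPM in T-N1G cells at 0.3 µM and 2.164, 2.77 and 2.33 CPM in T-N1G cells under vehicle, against 2.22, 2.53 and 2.72 CPM in Mock cells at 0.3 µM and 2.14, 2.65 and 2.72 CPM in Mock cells under vehicle. Its Mock groups overlapped and its T-N1G groups did not, and the interaction was 3.73 ± 0.20 (SE, adjusted p = 1.8e-11). Cpxm1, a carboxypeptidase family member, had 146, 136 and 155 CPM at 0.3 µM and 33.9, 26.96 and 28.99 CPM under vehicle in T-N1G cells, against 8.22, 10.7 and 10.5 CPM at 0.3 µM and 14.8, 14.7 and 15.6 CPM under vehicle in Mock cells, 2.90 ± 0.13 (SE, adjusted p = 1.7e-11). Map1a, a microtubule-associated protein, had 2.73 ± 0.11 (SE, adjusted p = 5.3e-11), the platelet-activating factor hydrolase Pafah2 2.65 ± 0.15 (SE, adjusted p = 3.1e-11), and Snx29, a sorting nexin, 3.14 ± 0.28 (SE, adjusted p = 2.5e-08).

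Kcnab2, a potassium channel beta subunit, reached a large value by a loss in Mock cells. It had 17.9, 16.2 and 14.1 CPM in T-N1G cells at 0.3 µM and 19.1, 15.2 and 15.8 CPM in T-N1G cells under vehicle, against 1.76, 1.52 and 2.12 CPM in Mock cells at 0.3 µM and 10.7, 9.02 and 10.3 CPM in Mock cells under vehicle, that is, T-N1G groups that overlapped and a fall in Mock cells by 2.47 on the log2 scale, for an interaction of 2.41 ± 0.19 (SE, adjusted p = 6.6e-09). The smallest p-values belonged to well expressed genes. Esd, an esterase that acts on formylglutathione, had 506, 542 and 501 CPM in T-N1G cells at 0.3 µM and 108, 112 and 98.6 CPM in T-N1G cells under vehicle, against 95.2, 91.1 and 90.3 CPM in Mock cells at 0.3 µM and 84.4, 86.2 and 84.9 CPM in Mock cells under vehicle, with 2.17 ± 0.070 (SE, adjusted p = 9.1e-14). Sumf2, a sulfatase-modifying factor, rose in T-N1G and fell in Mock cells (1.15 in T-N1G and -0.80 in Mock cells), an interaction of 1.96 ± 0.070 (SE, adjusted p = 2.8e-13). Sod1, the copper-zinc superoxide dismutase, had 1.48 ± 0.057 (SE, adjusted p = 5.0e-13), and Usp5, which cleaves free polyubiquitin chains, had 1.54 ± 0.060 (SE, adjusted p = 5.3e-13) with a Mock response of -0.07 ± 0.043 that was not called. Ndrg4 (2.33 ± 0.087), the hydrolase Abhd4 (2.08 ± 0.087), the kinetochore gene Zwint (1.65 ± 0.068) and Anxa7, an annexin (1.52 ± 0.066), completed this set together with Blvrb and Psmd11.

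Calls on the heat shock lists went both ways. The lists were heat shock 70 and 110, DNAJ and BAG, and HSP90 and small heat shock. Of their 49 genes tested, 13 were called higher (26.5%) and 16 lower (32.7%), with a median of -0.05. The shares of all genes were 23.6% and 22.7%. In T-N1G cells 42 rose, and in Mock cells 43. Of the 40 that rose in both lines, 9 were called higher and 12 lower in the interaction. The heat shock 70 and 110 list leaned lower, with 3 of 12 called higher and 6 lower (50%, median -0.39). With all 18 libraries 2 of that list were higher and 4 lower. Among the lower ones, Hsph1, an HSP110 nucleotide exchange factor, had 1326, 1485 and 1250.1 CPM in T-N1G cells at 0.3 µM and 375, 404 and 389.7 CPM in T-N1G cells under vehicle, against 2336, 1861 and 2256 CPM in Mock cells at 0.3 µM and 340.1, 289.9 and 328 CPM in Mock cells under vehicle, with -0.95 ± 0.12 (SE, adjusted p = 1.9e-05). Hspa1b, the inducible HSP70, rose by 4.03 in T-N1G and 4.78 in Mock cells (-0.74 ± 0.22 (SE, adjusted p = 0.020)). This call was lost without T-N1G vehicle replicate 3 (adjusted p = 0.057) and with all 18 libraries (adjusted p = 0.054). The co-chaperones Dnajb4 (-0.72 ± 0.13) and Dnaja4 (-0.61 ± 0.12) also had lower values. Hspb8, a small heat shock protein of the BAG3 pathway, had 10.6, 8.48 and 7.66 CPM in T-N1G cells at 0.3 µM and 2.82, 3.18 and 2.75 CPM in T-N1G cells under vehicle, against 4.45, 2.89 and 3.73 CPM in Mock cells at 0.3 µM and 0.605, 0.0930 and 0.415 CPM in Mock cells under vehicle, so its level was higher in T-N1G cells in both treatments while its response was lower, -1.68 ± 0.41 (SE, adjusted p = 0.0025). Dnajb2, a DNAJ co-chaperone, rose in both lines and more in T-N1G cells, at 0.63 ± 0.090. Higher responses were also found for Hspa13 (1.13 ± 0.069), Hsf2, a heat shock factor (0.94 ± 0.083), and Bag2 (0.80 ± 0.089). On the DNAJ and BAG list 7 were called higher, or 2 with all 18 libraries. On the HSP90 and small heat shock list 4 were lower, or 2 with all 18 libraries and 7 with pairs inside lines.

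Calls on other stress lists went both ways as well, beside 23.6% higher and 22.7% lower over all genes. Of 19 integrated stress response regulators, 4 were called higher (21.1%) and 6 lower (31.6%). Atf4, its central transcription factor, rose in both lines and more in T-N1G cells (1.01 in T-N1G and 0.38 in Mock cells; interaction 0.63 ± 0.072 (SE, adjusted p = 7.1e-07)), and Ppp1r15a, which restarts translation, had 0.51 ± 0.084. Ddit4, an inhibitor of mTORC1 signalling, had -0.68 ± 0.18. Of 25 genes of amino acid supply, 4 were called higher (16%) and 8 lower (32%), with Slc1a5 at -0.57 ± 0.080 and Bcat1 at -0.55 ± 0.093. Of 20 aminoacyl-tRNA synthetases, 7 were higher (35%) and 1 lower (5%), with Hars at 0.67 ± 0.066 and Aars at 0.56 ± 0.078. Of 25 genes of the unfolded protein response, 6 were higher (24%) and 4 lower (16%), neither above the share of all genes by more than 1%. Ero1l, an oxidase of the endoplasmic reticulum, had 0.40 ± 0.074. The co-chaperone Dnajb11 had -0.41 ± 0.065, a call lost with all 18 libraries (adjusted p = 0.056). Of the 8 TRiC chaperonin subunits, which fold actin and tubulin, all rose in each line and 1 was called in each direction in the interaction (12.5%). With all 18 libraries the counts were 1 lower for the stress response regulators, 1 higher and 3 lower for amino acid supply, 4 higher for the synthetases, and 2 higher and 0 lower for the unfolded protein response.

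**Figure D3:**
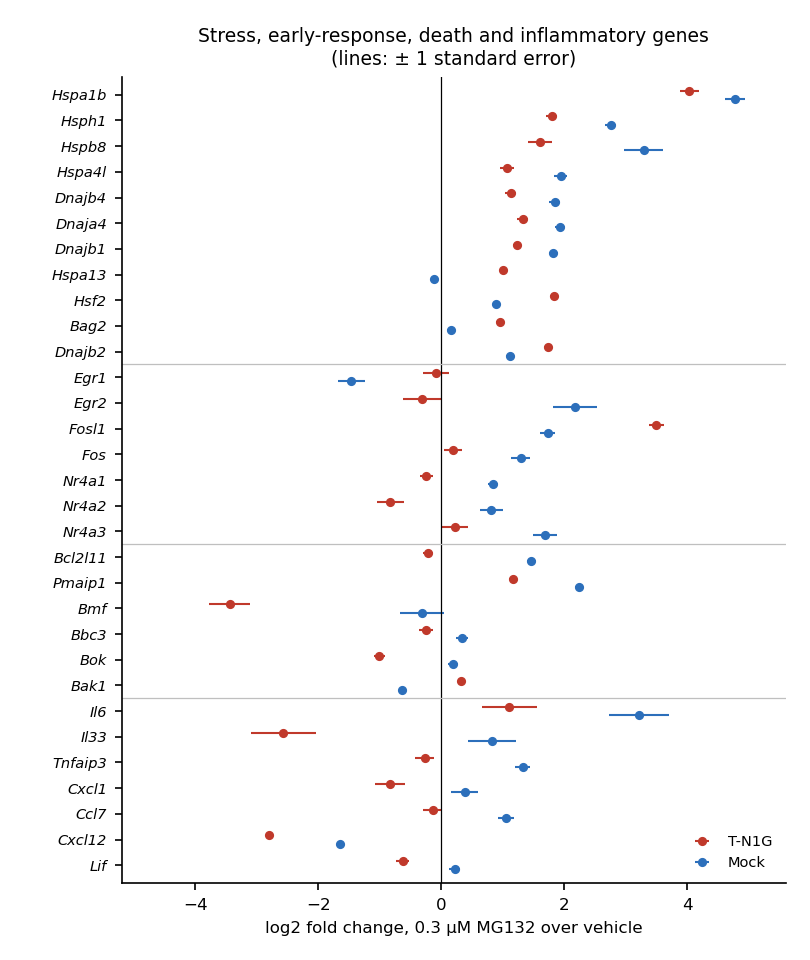
Log2 fold change at 0.3 µM MG132 over vehicle in T-N1G (red) and Mock cells (blue) for 31 genes of heat shock, early response, cell death and inflammation, chosen after their values were seen, with bars of 1 standard error over 3 libraries a group. Hspa1b, Hsph1 and Hspb8 lie far right of 0 in both lines, and Bcl2l11 and Egr2 lie right of 0 in Mock and left of 0 in T-N1G cells.

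Autophagy and lysosome genes were called higher more often than lower. Of 27 autophagy genes, 11 were higher and 5 lower (median 0.17). Sqstm1, the receptor p62 that carries ubiquitinated cargo, had 2836, 2970.2 and 2861 CPM in T-N1G cells at 0.3 µM and 290.5, 279 and 321 CPM in T-N1G cells under vehicle, against 1185, 1184 and 1188 CPM in Mock cells at 0.3 µM and 228, 264 and 229 CPM in Mock cells under vehicle, a rise in both lines that was larger in T-N1G cells, 0.98 ± 0.085 (SE, adjusted p = 1.7e-08). Gabarapl1, an ATG8 homologue, had 1.17 ± 0.11 (SE, adjusted p = 1.4e-06) and the receptor Tax1bp1 0.88 ± 0.071. Of 31 lysosome and V-ATPase genes, 14 were higher and 3 lower (median 0.21). Ctsd, the protease cathepsin D, had 1306, 1303 and 1316 CPM at 0.3 µM and 405, 373 and 359 CPM under vehicle in T-N1G cells, against 421, 412 and 431 CPM at 0.3 µM and 303, 298 and 294 CPM under vehicle in Mock cells, 1.29 ± 0.067 (SE, adjusted p = 1.3e-11). The proton pump subunit Atp6v0a1 rose in T-N1G and fell in Mock cells, with 1.42 ± 0.083 (SE, adjusted p = 6.1e-11), and Atp6v1h had 1.06 ± 0.080. In the fit of all 18 libraries 3 autophagy genes were lower, and 9 lysosome genes were higher and 1 lower.

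Genes of early response, inflammation and cell death leaned the other way. Of 23 AP-1 and immediate-early genes, 2 were called higher and 12 lower (median -0.52). In T-N1G cells 13 rose and 4 fell, and in Mock cells 20 rose and 2 fell. The orphan nuclear receptors Nr4a2 (-1.65 ± 0.29) and Nr4a3 (-1.46 ± 0.29) and Fos (-1.10 ± 0.21), which encodes an AP-1 subunit, were lower. Egr2 had -2.49 ± 0.48 at levels of about 1 CPM or less, and its call was lost with all 18 libraries (adjusted p = 0.072). Fosl1, another AP-1 subunit, was an exception, with 43.9, 48.4 and 48.3 CPM in T-N1G cells at 0.3 µM and 4.28, 5.12 and 3.02 CPM in T-N1G cells under vehicle, against 19.8, 21.5 and 24.2 CPM in Mock cells at 0.3 µM and 6.88, 5.63 and 7.200 CPM in Mock cells under vehicle and an interaction of 1.77 ± 0.19 (SE, adjusted p = 8.1e-07). Egr1 was the other, at 1.38 ± 0.30, and that call was lost with all 18 libraries (adjusted p = 0.12).

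Of 23 inflammatory and NF-kB genes, 0 were called higher and 15 lower (median -0.41; at an unadjusted p under 0.05 and in DESeq2 the count called higher was 0 as well). Tnfaip3, the A20 feedback inhibitor of NF-kB, had 9.398, 11.1 and 8.05 CPM in T-N1G cells at 0.3 µM and 11.9, 12.5 and 9.96 CPM in T-N1G cells under vehicle, against 46.7, 34.6 and 36.4 CPM in Mock cells at 0.3 µM and 17.3, 14.9 and 14.9 CPM in Mock cells under vehicle. It rose in Mock cells and its T-N1G groups were not called apart, with an interaction of -1.59 ± 0.19 (SE, adjusted p = 1.1e-05). Each T-N1G library of Tnfaip3 at 0.3 µM was below the vehicle library of the same number. With pairs inside lines its fall in T-N1G cells was called (-0.27, adjusted p = 0.0056). The chemokine Ccl7 had 25.03, 21.6 and 14.8 CPM at 0.3 µM and 25.2, 22.7 and 19.8 CPM under vehicle in T-N1G cells, against 76.99, 78.9 and 77.8 CPM at 0.3 µM and 36.2, 38.6 and 38.2 CPM under vehicle in Mock cells, -1.19 ± 0.20 (SE, adjusted p = 0.00062). Cxcl12, a chemokine that fibroblasts secrete in quantity, fell in both lines. It had 271, 287 and 255 CPM in T-N1G cells at 0.3 µM and 2004, 1807 and 1828 CPM in T-N1G cells under vehicle, against 308, 308 and 301 CPM in Mock cells at 0.3 µM and 964, 948 and 946 CPM in Mock cells under vehicle, with a higher vehicle level in T-N1G cells and an interaction of -1.15 ± 0.073 (SE, adjusted p = 2.3e-10). Il33 (-3.39 ± 0.66) stood at under 1 CPM on average in every group. Of the inflammatory genes 9 were called lower with all 18 libraries, and 1 was called higher without T-N1G 0.3 µM replicate 3.

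Of 13 BCL2 family genes, 2 were called higher and 6 lower (median -0.42). Bcl2l11, which encodes the death-promoting protein BIM, had 18.6, 20.5 and 17.7 CPM in T-N1G cells at 0.3 µM and 24.1, 21.8 and 20.2 CPM in T-N1G cells under vehicle, against 48.04, 47.4 and 45.1 CPM in Mock cells at 0.3 µM and 16.04, 16.9 and 17.95 CPM in Mock cells under vehicle. It rose in Mock cells without overlap and fell slightly in T-N1G cells, where the groups overlapped but each library was below the vehicle library of the same number, with an interaction of -1.68 ± 0.11 (SE, adjusted p = 2.3e-10). Pmaip1 (NOXA), also death-promoting, rose in both lines, by 1.17 in T-N1G and 2.23 in Mock cells (-1.07 ± 0.082 (SE, adjusted p = 3.0e-09)). Bmf (-3.13 ± 0.52) and Bok (-1.20 ± 0.13) fell in T-N1G cells and were lower. Bak1, an effector of mitochondrial permeabilisation, was higher, at 0.97 ± 0.061 (SE, adjusted p = 2.3e-10). Of 21 p53 targets, 6 were called higher and 6 lower (28.6% each, against 23.6% and 22.7% of all genes). With all 18 libraries 3 were higher.

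Matrix, contractile and fibroblast genes were called lower more often than higher. Of 19 collagens 0 were higher and 7 lower (median -0.45), of 35 genes of the matrix and its enzymes 1 and 19 (-0.45), of 20 contractile, SRF or YAP target genes 0 and 9 (-0.46), and of 11 fibroblast markers tested 0 and 6 (-0.50). Col5a1, a fibrillar collagen, fell in T-N1G cells (-0.71 in T-N1G and -0.01 in Mock cells; interaction -0.70 ± 0.11 (SE, adjusted p = 6.4e-05)). Mmp2, a gelatinase, had 26.97, 29.3 and 33.9 CPM in T-N1G cells at 0.3 µM and 55.7, 55.1 and 62.8 CPM in T-N1G cells under vehicle, against 17.9, 18.6 and 16.2 CPM in Mock cells at 0.3 µM and 16.5, 14.9 and 15.9 CPM in Mock cells under vehicle, an interaction of -1.10 ± 0.12 (SE, adjusted p = 4.0e-07). Pdgfra, a growth factor receptor of fibroblasts, had 77.6, 83.3 and 64.3 CPM at 0.3 µM and 119, 109 and 108 CPM under vehicle in T-N1G cells, against 115, 113 and 119 CPM at 0.3 µM and 53.2, 49.1 and 58.6 CPM under vehicle in Mock cells, so it fell in T-N1G and rose in Mock cells (-1.69 ± 0.12 (SE, adjusted p = 2.9e-08)). Actn1, which crosslinks actin, had -0.62 ± 0.10, and Srf -0.61 ± 0.13. Col1a1 (-0.58 ± 0.10), Col1a2 (-0.50 ± 0.091) and Vim (-0.80 ± 0.11) lost their calls with all 18 libraries, at adjusted p = 0.069, 0.21 and 0.11. In that fit 3 collagens, 7 matrix genes and 2 fibroblast markers were called lower. With pairs inside lines 11 collagens and 14 contractile genes were.

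In these bulk libraries fewer cells of a type and less RNA per cell cannot be told apart. Summed over its markers, the fibroblast list stood at 8595 to 9357 CPM at 0.3 µM and 11350 to 12550 CPM under vehicle in T-N1G cells, against 11520 to 12070 CPM at 0.3 µM and 11250 to 12270 CPM under vehicle in Mock cells. The Mock sum hides opposite moves. In Mock cells Fn1 had 3799, 3865 and 4097 CPM at 0.3 µM and 2130, 1825 and 1965 CPM under vehicle. Of the 11 fibroblast markers tested, 2 rose and 6 fell in Mock cells, and 1 rose and 8 fell in T-N1G cells. The epithelial list stood at 67.5 to 74.9 CPM at 0.3 µM and 96.9 to 99.5 CPM under vehicle in T-N1G cells, against 271 to 314 CPM at 0.3 µM and 208 to 215 CPM under vehicle in Mock cells, most of it Krt19. Of 6 epithelial markers tested 4 were called lower, led by Krt19 in abundance (-1.25 ± 0.10), and 0 higher. The endothelial sum was 6.82 to 9.95 CPM at 0.3 µM and 5.35 to 7.102 CPM under vehicle in T-N1G cells, against 19.4 to 27.4 CPM at 0.3 µM and 6.18 to 6.93 CPM under vehicle in Mock cells, most of it Kdr. Of 2 endothelial markers tested, Kdr was called lower (-1.19 ± 0.26), so this sum describes mainly 1 gene. The muscle and fat sum lay between 18.88 and 34.57 CPM, with Plin1 at 0, and leukocyte, muscle and fat lists gave no call. The part of these shifts in the results was not tested.

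Genes of cholesterol and fatty acid synthesis gave 1 higher and 14 lower of 31 (median -0.26). In T-N1G cells 24 fell and in Mock cells 20. Elovl6, a fatty acid elongase, had 17.3, 20.2 and 21.6 CPM at 0.3 µM and 70.9, 76.1 and 89.4 CPM under vehicle in T-N1G cells, against 35.7, 40.7 and 38.7 CPM at 0.3 µM and 81.5, 85.3 and 83.2 CPM under vehicle in Mock cells, -0.88 ± 0.12 (SE, adjusted p = 1.8e-05). Stard4, a cholesterol carrier, had -0.77 ± 0.11, and Pmvk, a mevalonate pathway kinase, was the 1 called higher (0.64 ± 0.099). Of 25 mitosis genes, 2 were higher and 16 lower (median -0.24). Nusap1 (-0.91 ± 0.077) and Kif23 (-0.81 ± 0.073), which act at the spindle, led the lower ones. The checkpoint kinase gene Bub1b went the other way, with 194, 202 and 196 CPM in T-N1G cells at 0.3 µM and 143, 153 and 155 CPM in T-N1G cells under vehicle, against 86.1, 93.5 and 84.9 CPM in Mock cells at 0.3 µM and 138, 131 and 136 CPM in Mock cells under vehicle and 1.01 ± 0.067 (SE, adjusted p = 3.7e-10). Of 30 DNA replication genes, 2 were higher and 12 lower, with Chaf1b at -0.76 ± 0.079 and E2f1 at 0.78 ± 0.085. Unlike the synthesis and mitosis lists, more of them rose than fell in each line. In T-N1G cells 15 rose and 9 fell (median response 0.115), and in Mock cells 19 rose and 6 fell (median 0.247). With all 18 libraries the counts called lower were 5 synthesis, 5 mitosis and 4 replication genes, beside 11% of all genes. With pairs inside lines 23 synthesis genes were called lower.

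Genes of mitochondrial energy production were called higher as a group with small values. Of 42 subunits of oxidative phosphorylation, 33 were called higher and 0 lower, with a median of 0.30, and of 47 mitochondrial ribosomal proteins 34 and 0, with a median of 0.39. In the fit of all 18 libraries 15 of the first list and 22 of the second were called higher. Of the first list 17 rose and 10 fell in T-N1G cells, against 2 and 30 in Mock cells. Ndufa5, a subunit of complex I, had 84.7, 88.1 and 73.7 CPM at 0.3 µM and 68.2, 69.2 and 64.8 CPM under vehicle in T-N1G cells, against 44.1, 40.7 and 40.2 CPM at 0.3 µM and 60.3, 64.4 and 66.04 CPM under vehicle in Mock cells, 0.90 ± 0.090 (SE, adjusted p = 1.3e-07). Mrpl11, of the large mitochondrial ribosome subunit, had 1.00 ± 0.088 (SE, adjusted p = 2.4e-08). Of 49 cytosolic ribosomal proteins, 1 was called higher and 6 lower, counts that depended on the fit. The lower count was 16 with a replicate block and 19 with pairs inside lines, 0 with all 18 libraries, 11 without T-N1G 0.3 µM replicate 2, and 3 without T-N1G 0.3 µM replicate 1 or 3, T-N1G vehicle replicate 2, Mock 0.3 µM replicate 2, or Mock vehicle replicate 1 or 3. Where a list above had 0 calls in a direction, DESeq2 and an unadjusted p under 0.05 in edgeR also gave 0, apart from 4 lists. By unadjusted p, 1 quinone or xenobiotic gene and 2 mitochondrial ribosomal genes were lower, and 1 contractile gene and 1 leukocyte marker higher. Of these lists DESeq2 gave 1 call, of a contractile gene.

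**Figure D4:**
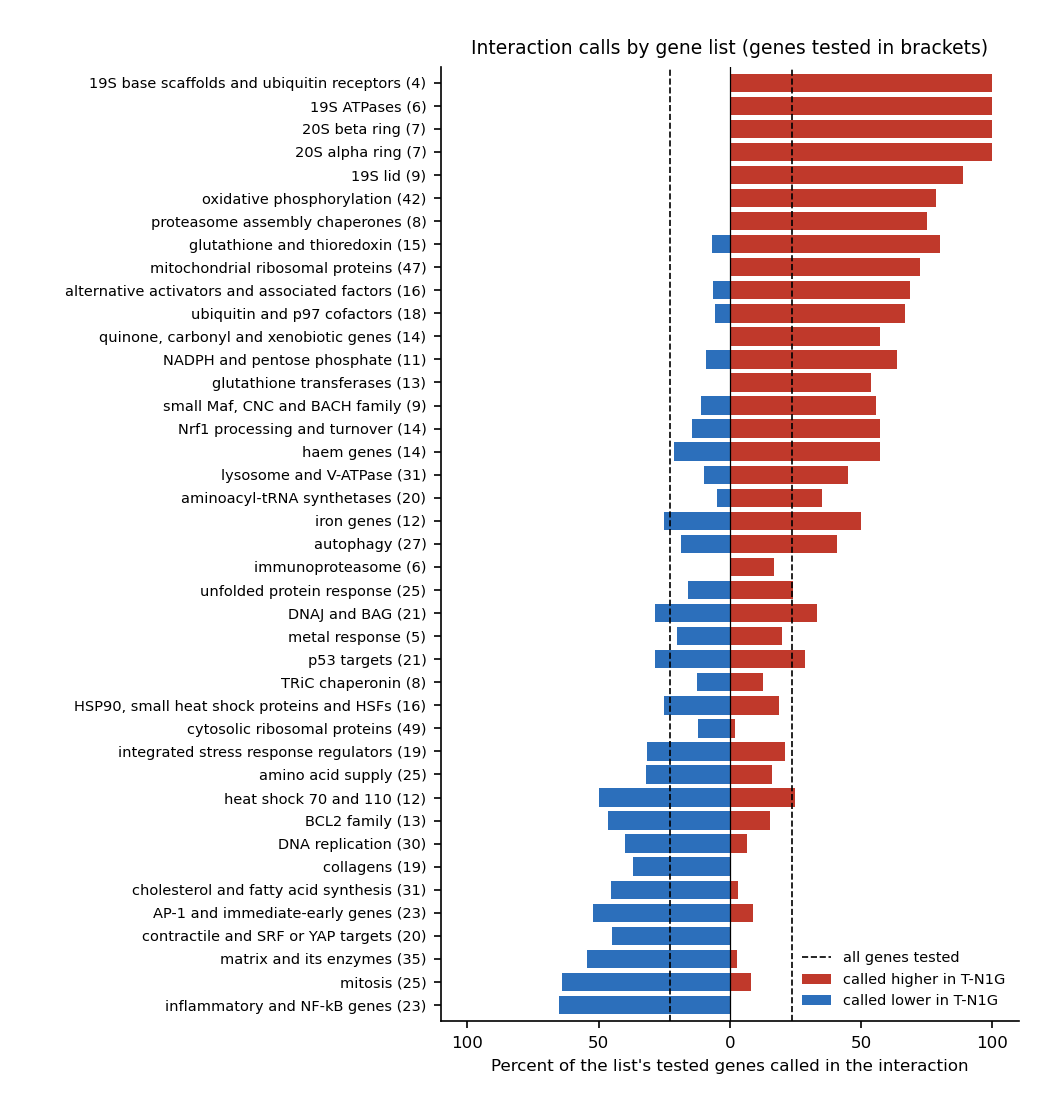
Share of the tested genes of each list called higher (red, right) or lower (blue, left) in the interaction, with the number tested in brackets; dashed lines mark 23.6% higher and 22.7% lower over all 12683 genes. The proteasome lists stand at the top, and the inflammatory, mitosis and matrix lists at the bottom.

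The largest negative interactions came from genes that rose in Mock cells or fell in T-N1G cells. Plekha6 had 3.88, 2.29 and 2.29 CPM in T-N1G cells at 0.3 µM and 21.6, 10.2 and 13.3 CPM in T-N1G cells under vehicle, against 5.17, 4.76 and 3.98 CPM in Mock cells at 0.3 µM and 2.56, 2.42 and 3.69 CPM in Mock cells under vehicle, a fall in T-N1G cells and an interaction of -3.09 ± 0.49 (SE, adjusted p = 0.00050). Gjb2, the gap junction protein connexin 26, had 86.4, 74.7 and 38.1 CPM in T-N1G cells at 0.3 µM and 46.05, 41.3 and 28.1 CPM in T-N1G cells under vehicle, against 149, 138 and 154 CPM in Mock cells at 0.3 µM and 18.8, 17.3 and 13.9 CPM in Mock cells under vehicle. Its T-N1G libraries were spread and overlapped with those under vehicle, although each was above the vehicle library of the same number, and it rose 8.81-fold in Mock cells (-2.36 ± 0.43 (SE, adjusted p = 0.0022)). Axin2, a feedback inhibitor and target of Wnt signalling, had 1.12, 1.56 and 1.85 CPM in T-N1G cells at 0.3 µM and 1.65, 1.15 and 1.26 CPM in T-N1G cells under vehicle, against 9.67, 7.34 and 6.51 CPM in Mock cells at 0.3 µM and 2.09, 0.930 and 1.29 CPM in Mock cells under vehicle, with -2.27 ± 0.38 (SE, adjusted p = 9.1e-05). Edn1, which encodes the vasoconstrictor endothelin-1, fell in T-N1G and rose in Mock cells (-1.17 in T-N1G and 1.10 in Mock cells; -2.26 ± 0.27 (SE, adjusted p = 2.8e-06)). The cationic amino acid transporter Slc7a2 (-2.17 ± 0.16), the nuclear corepressor Hr (-2.10 ± 0.17), the zinc finger gene Plagl1 (-2.03 ± 0.24), Lad1 (-2.01 ± 0.29) and the activin antagonist Fst (-1.84 ± 0.29) showed the same opposite directions.

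Smallest p-values in the negative direction were found for Tle3, a Groucho-type corepressor, which had 93.5, 88.4 and 83.7 CPM in T-N1G cells at 0.3 µM and 125, 114 and 126 CPM in T-N1G cells under vehicle, against 189, 189 and 182 CPM in Mock cells at 0.3 µM and 98.4, 95.1 and 93.5 CPM in Mock cells under vehicle. It fell in T-N1G and rose in Mock cells without overlap in either line (-1.43 ± 0.070 (SE, adjusted p = 6.5e-12)). Tsc22d1, a leucine zipper gene of the TSC22 family, moved likewise (-1.03 in T-N1G and 0.48 in Mock cells; -1.51 ± 0.080 (SE, adjusted p = 1.7e-11)). Sox9, a transcription factor of cartilage and progenitor cells, had 24.4, 25.9 and 22.9 CPM in T-N1G cells at 0.3 µM and 22.9, 20.7 and 21.3 CPM in T-N1G cells under vehicle, against 77.8, 78.4 and 78.3 CPM in Mock cells at 0.3 µM and 26.8, 25.4 and 28.01 CPM in Mock cells under vehicle. It rose by 0.17 in T-N1G and 1.55 in Mock cells, with -1.37 ± 0.088 (SE, adjusted p = 2.4e-10). Fgfr2, a growth factor receptor (-1.20 ± 0.072), Marcks, a membrane-bound kinase substrate (-1.09 ± 0.070), and Ddah2 (-1.32 ± 0.075) fell in both lines and further in T-N1G cells. Erf, an ETS repressor (-1.12 ± 0.072), and Traf4 (-1.36 ± 0.088) fell in T-N1G and rose in Mock cells.

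**Figure D5:**
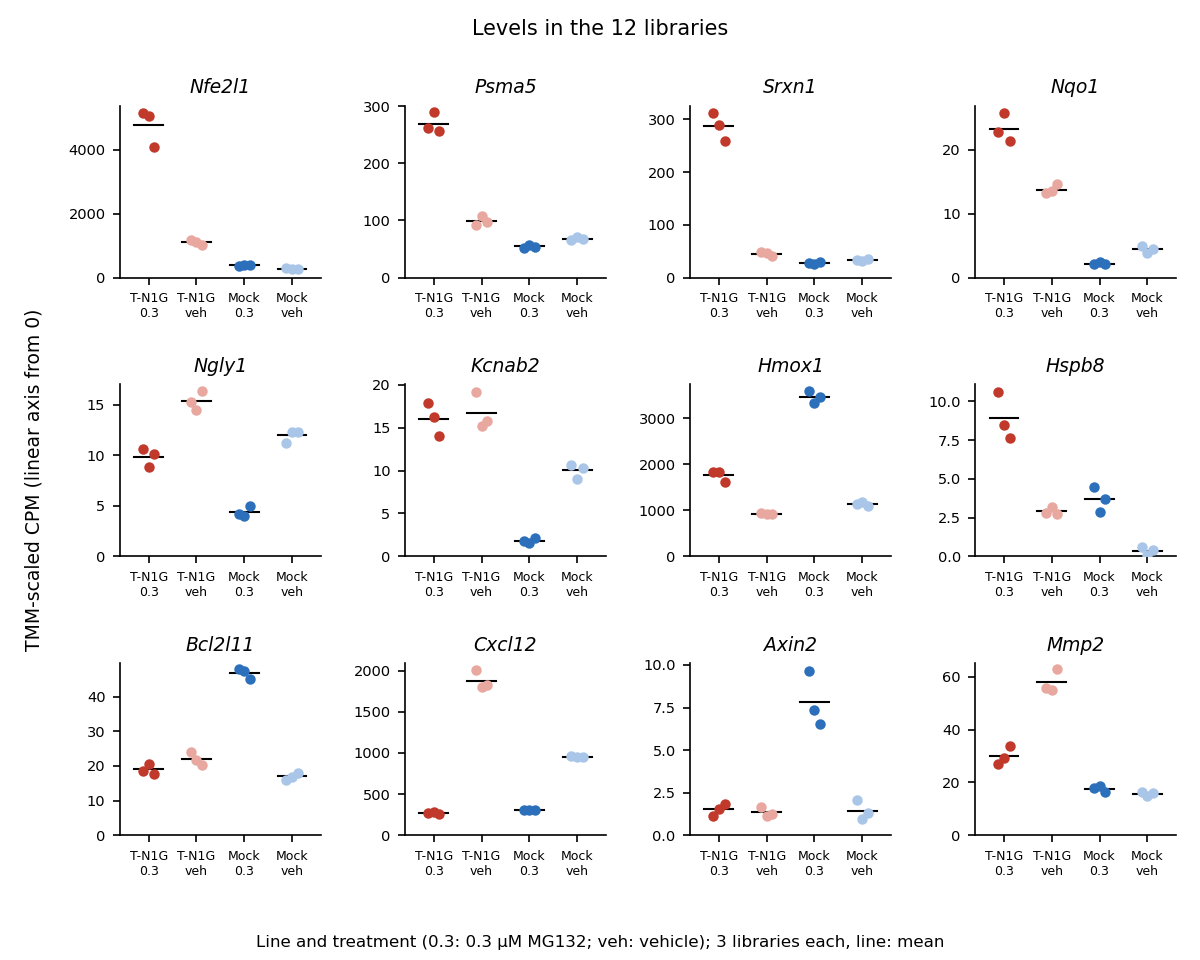
TMM-scaled CPM of 12 genes in the 12 libraries, 3 points per group with a bar at their mean, on linear axes from 0; from left to right T-N1G cells at 0.3 µM MG132 and under vehicle, then Mock cells at 0.3 µM and under vehicle. Nfe2l1, Psma5 and Srxn1 are highest in T-N1G cells at 0.3 µM, Kcnab2 and Ngly1 lowest in Mock cells at 0.3 µM, and Bcl2l11, Hmox1 and Axin2 highest in Mock cells at 0.3 µM.

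The interaction at 1.0 µM, fitted over all 18 libraries, uses the same vehicle libraries, so its values are only set beside those at 0.3 µM. The values at 0.3 µM are from the fit of 12 libraries, so standard errors and calls at the 2 doses come from unlike fits. For Psma5 it was 2.51 ± 0.14 (SE, adjusted p = 2.6e-10) at 1.0 µM, beside 1.76 ± 0.085 at 0.3 µM, and for Psmd11 2.03 ± 0.10 (SE, adjusted p = 1.2e-10) beside 1.56 ± 0.062. Psmb5 had 0.75 ± 0.15 (SE, adjusted p = 0.00050) beside 0.76 ± 0.076, and Psmd8 was called at neither dose (-0.07 ± 0.22 (SE, adjusted p = 0.83) at 1.0 µM). Blvrb had 2.94 ± 0.15 (SE, adjusted p = 9.2e-11) beside 2.65 ± 0.11, Srxn1 2.91 ± 0.20 (SE, adjusted p = 6.0e-09) beside 2.93 ± 0.11, and Fam13a 5.31 ± 0.22 (SE, adjusted p = 1.8e-11) beside 4.18 ± 0.20. Some lower interactions were not called at 1.0 µM: Hspa1b had 0.42 ± 0.27 (SE, adjusted p = 0.21) beside -0.74 ± 0.22, Axin2 -0.57 ± 0.45 (SE, adjusted p = 0.33) beside -2.27 ± 0.38, Pdgfra -0.51 ± 0.24 (SE, adjusted p = 0.097) beside -1.69 ± 0.12, and Gjb2 -1.57 ± 0.67 (SE, adjusted p = 0.072) beside -2.36 ± 0.43. In the fit of all 18 libraries Hspa1b was not called at 0.3 µM either. Bcl2l11, at -1.28 ± 0.16 (SE, adjusted p = 5.1e-06) beside -1.68 ± 0.11, Hmox1, at -1.15 ± 0.24 (SE, adjusted p = 0.00079) beside -0.68 ± 0.079, and Cxcl12, at -2.28 ± 0.15 (SE, adjusted p = 2.4e-09) beside -1.15 ± 0.073, were called lower at both doses. The difference between doses was not tested.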

How the data were processed

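Polyadenylated RNA of 12 libraries in 4 groups was compared. The submitters' processing notes name bcl2fastq 2.16.0.10, TopHat2 2.0.8b, the mouse build mm9 and Cuffdiff 2.1.1. They give no annotation, filter or strand setting, so overlapping and antisense genes cannot be told apart. The deposited table holds, per the file headers, estimated counts of fragments by gene, without scaling of 1 library to another. Per library 98.23% to 98.51% were whole within 1e-06, and all were rounded. Positions are those of the authors' deposited table of group values. Genes unprocessed in at least 1 of the 12 libraries, Hspa8 among them, were dropped. A further 14 genes with a failed FPKM in some library, Nfe2l1 among them, kept their counts. Fragments carry no molecular identifiers.

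Cuffdiff's condition names gave line and dose (N1 read as T-N1G, L-MG as 0.3 µM), and its library numbers were taken in the order of the sample titles. The files state neither link. Libraries of a group differed by more than sampling noise, with chi-square over degrees of freedom of 2.82 or more, so none was counted as a duplicate. Deviations from the group mean of log2 CPM were correlated above 0.1 in 6 of 6 pairs of the same number inside a line (0.231 to 0.618), and in 8 of 12 between lines (-0.114 to 0.322). A limit of 0.1 in every pair was therefore met by inhibitor and vehicle libraries inside each line and was not met across lines. Missing the limit does not show that libraries across lines are unpaired. The median correlation was 0.247 over all pairs of the same number, and -0.148 between libraries of other numbers in different groups. Because deviations were taken from the group mean, the value for other numbers is largely fixed by that for the same number. It is no separate reference. The sample titles carry these numbers but do not say that libraries of the same number are pairs. The pairing was therefore judged from these data, and the block is given as an alternative.

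Genes were tested with edgeR 4.0.16 (R 4.3.3): quasi-likelihood F test, TMM scaling, default expression filter, robust dispersion, 4 group means without covariates. Every adjusted p is from that test unless another is named. Standard errors are the size of the log2 value over the square root of F. The main interaction fit was tested on simulated data with 200 changed genes, far fewer than were called in the real data. Of 50 genes at each simulated log2 value, it recovered 74% at 0.5, 84% at 1, 96% at 2 and 70% at -1. Of its calls 6.9% were false. Named genes were those of the construct, the 15 largest called interactions in each direction with at least 5 CPM in a group, the 10 smallest p in each direction, up to 6 called members of each of 46 lists, every proteasome subunit, and 6 genes per form of response. Which of these the text describes was decided with their values in view. The comparison and the lists were chosen with earlier results of these data known. Alternatives were all 18 libraries, library size or DESeq2 size factors, DESeq2 1.42.0, no filter, failed genes dropped, a replicate block over all libraries, each library left out, and a 2-fold minimum. A block inside each line was added after seeing the data.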

Additional observations from a re-analysis of the deposited data

Results flagged for a closer look

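The response to 0.3 µM MG132 differed between T-N1G and Mock cells by the interaction test for 2991 genes with a higher response in T-N1G cells and for 2882 with a lower one, and for 32 proteasome subunits with a higher one. Among the genes of largest interaction, some moved in opposite directions in the 2 lines. The interaction of Fam13a was 4.18, that of Snx29 3.14, that of Gsta4 3.01, that of Srxn1 2.93, that of Cpxm1 2.90 and that of Map1a 2.73 on the log2 scale. Each of these rose in T-N1G and fell in Mock cells. In the other direction, Edn1 had -2.26, Slc7a2 -2.17, Hr -2.10, Plagl1 -2.03, Lad1 -2.01 and Fst -1.84, and each fell in T-N1G and rose in Mock cells. All are values of edgeR's quasi-likelihood test over 3 libraries per group.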

How the results depend on the processing

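With all 18 libraries in 1 fit, which pools the spread over 6 groups, 1878 genes were called higher and 1454 lower, and 3307 of these 3332 were among the 5873 called from 12 libraries. The cause was not tested. A 2-fold minimum left 426 higher and 506 lower, with 19 proteasome subunits and 18 antioxidant, haem and iron genes called higher. The other alternatives stayed within 1.5 times these 4 main counts. List counts that did not are given with the lists. Scaling by library size gave 3025 higher and 2795 lower, DESeq2 2788 and 2594, and no filter 2935 and 2717. Leaving out each library in turn gave 2764 to 3021 higher and 2594 to 2830 lower, with 32 proteasome subunits higher each time. A group that loses a library keeps 2, and the spread is pooled over groups. Of 326 named genes, 74 lost their call under at least 1 setting and none changed direction.

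With a replicate block over all libraries 3198 genes were called higher and 3168 lower, 5862 of them among the 5873. With the pairing inside each line, 3470 were higher and 3555 lower, 5866 of them among the 5873, with 32 proteasome subunits and 52 antioxidant, haem and iron genes higher. Of the named genes, Col3a1 (adjusted p = 0.0749 and 0.0988) lost its call in both and Xbp1 (0.103) in the second. Counts of 0 to 2 calls on a list moved by up to 3 across settings.

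Precision is limited for genes at or under 1 CPM, such as Mafg in Mock cells, Egr2 and Il33.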

Other observations

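Called interactions were found on every chromosome with at least 300 genes tested. The share of tested genes called higher ran from 19.7% on chromosome 17 to 29.6% on chromosome 2, and the share called lower from 18.8% on chromosome 13 to 26.8% on chromosome 3, against 23.6% and 22.7% over all genes. Of 5 metal response genes, 1 was called higher and 1 lower (20% each, near those shares of all genes).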
